A study of Mus musculus with 4 samples.

Results

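The genes described here are those that cut, trim and package peptide hormones: the prohormone convertases Pcsk1 and Pcsk2, the convertase inhibitor Pcsk1n, carboxypeptidase E (Cpe) and the granule membrane phosphatases Ptprn and Ptprn2. They are 6 of the 27626 genes on the array, and were found as the 11 of 41174 probes that the scanner files name after them. Pcsk1n had 3 probes, Pcsk1, Pcsk2 and Cpe had 2 each, and Ptprn and Ptprn2 had 1 each.

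Endocrine cells and neurons make most of their peptides as inactive precursors and store them in dense-core granules. Inside the granule, Pcsk1 and Pcsk2 cut precursors after basic residues, Cpe removes the basic residues left at the new end, and Pcsk1n, also called proSAAS, inhibits Pcsk1. Ptprn (IA-2) and Ptprn2 (phogrin) span the granule membrane; both have a phosphatase-like domain and take part in granule storage and release. REST is a zinc-finger repressor that holds neuronal genes, many granule genes among them, silent in non-neuronal cells through a DNA site called RE1.

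The series holds 4 single-colour arrays from mouse embryos at E13.5, 1 each of CKO limb, WT limb, CKO brain and WT brain. CKO embryos carry floxed Rest, which Cre alleles switched on by doxycycline remove, and WT embryos are labelled wild type. Doxycycline from E8.5 to E13.5 is recorded for all 4 samples, WT included, and the shared background is mixed, 129 and C57BL/6. The labels do not say whether WT embryos carry floxed Rest or Cre, which cells express Cre, which part of Rest is floxed, or whether tissue of several embryos was pooled.

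With 1 array per group there were no replicates, so a difference between CKO and WT within a tissue has no test, and precision is limited by having so few arrays. Levels are log2 signals relative to the 75th percentile of the array's non-control spots, so a value of 0 is that percentile and levels of different probes are not comparable. Differences are CKO minus WT on the log2 scale, and a gene is represented by its brightest probe. A difference counts as called at 2-fold or more. Where only 1 array of a pair was well above background, the difference is a lower bound against the weakest signal well above background on the dim array, and is written "at least". Where such a bound would fall on the other side of 0, it was set to 0. Technical error was read from 245 probes that each array carries in 10 copies. The SD of a single-spot difference was 0.07 in limb and 0.06 in brain for probes above the 75th percentile, and 0.30 and 0.32 for those more than 3 log2 units below it; it covers neither labelling nor embryos.

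The CKO arrays had more spots well above background, 68.6% in CKO limb against 62.7% in WT limb and 70.7% in CKO brain against 64.5% in WT brain. The targeted gene Rest was dimmer in CKO at each of 3 probes. At chr5:77709928-77709987 (mm9) it was 15.7-fold lower in CKO limb than in WT limb and 11.9-fold lower in CKO brain than in WT brain, and the smallest drops were 4.03-fold in limb and 1.88-fold in brain. The tissue labels matched their markers: the limb gene Hoxa13 was at -0.39 in CKO limb and -0.19 in WT limb and not well above background in either brain, while the neural genes Pax6 and Neurod1 were well above background in both brains and in neither limb.

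The sequences that measured these genes are shown for the single probes of Ptprn and Ptprn2 and for the probes of Pcsk1, Pcsk1n and Cpe that cross an intron, since such a probe reads spliced RNA. They are the array's 60-base oligonucleotides, 5′ to 3′, in lower case throughout because no stretch is singled out.
Pcsk1 (chr13:75236748-75243404, plus strand): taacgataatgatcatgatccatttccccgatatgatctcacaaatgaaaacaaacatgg
Pcsk1n (chrX:7499610-7500062, plus strand): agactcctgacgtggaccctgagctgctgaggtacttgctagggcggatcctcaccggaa
Cpe (chr8:67072015-67073749, minus strand): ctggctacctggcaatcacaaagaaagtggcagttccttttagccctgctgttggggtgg
Ptprn (chr1:75248386-75248445, minus strand): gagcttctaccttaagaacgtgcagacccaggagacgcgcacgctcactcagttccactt
Ptprn2 (chr12:118486235-118487051, plus strand): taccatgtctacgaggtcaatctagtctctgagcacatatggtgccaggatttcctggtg

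Positions are on mm9, as the scanner files give them. The ends of these probes lie 6657 bases apart for Pcsk1, 453 for Pcsk1n, 1735 for Cpe and 817 for Ptprn2, so introns totalling 6597, 393, 1675 and 757 bases lie within them, and each joins exons. The Ptprn probe lies within 60 continuous bases. The other probes were also single 60-base blocks: Pcsk1 at chr13:75269727-75269786, Pcsk2 at chr2:143639649-143639708 and chr2:143641545-143641604, Pcsk1n at chrX:7500267-7500326 and chrX:7500858-7500917, and Cpe at chr8:67071820-67071879. No exon annotation of mm9 was used here.

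The members split in limb. Pcsk1, Pcsk2 and Ptprn were far higher in CKO limb than in WT limb, while Cpe, a trimming enzyme, and Pcsk1n, an inhibitor, differed by at most 1.14-fold at their brightest probes. Of 6 members, 3 were higher by 2-fold or more in CKO limb and 0 lower, where among all 18445 genes compared 2.49% were higher and 2.16% lower by that much. With both arrays required to be well above background, 1 member, Pcsk2, was higher and 0 lower, where 1.57% of genes were higher and 1.3% lower. The median difference of the members was 1.41, against -0.02 for all genes compared. It includes bounds, and Ptprn2, for which no fold can be given in limb, was set to 0.

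Pcsk1 cuts precursors early, on the way into the granule. At its brighter probe (chr13:75269727-75269786) the scanner signal was 214 in CKO limb, against 5.45 in WT limb, which was not well above background. This gave at least a 7.13-fold higher level, a log2 difference of at least 2.83. In brain the probe gave 331 in CKO and 151 in WT, a 1.97-fold difference.

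The weaker Pcsk1 probe, which crosses an intron, had a signal of 55.6 in CKO limb and 5.79 in WT limb, and 32.2 in CKO brain and 11.7 in WT brain. Only the CKO arrays were well above background there, so its differences were at least 1.85-fold in limb and at least 1.32-fold in brain. Both probes were thus brighter in CKO than in WT in both tissues, and the WT limb array had no signal well above background for either. At the brighter probe the order of levels was CKO brain (-1.60), CKO limb (-2.11), WT brain (-2.57) and then WT limb, with neighbouring steps of 0.52 and 0.46 log2.

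Pcsk2 acts later, in the maturing granule, and makes the shorter peptides. Its brighter probe (chr2:143639649-143639708) was measured on all 4 arrays, at 0.57 in CKO limb and -2.05 in WT limb, and at 1.25 in CKO brain and 1.73 in WT brain. It was 6.18-fold higher in CKO limb than in WT limb and 1.39-fold lower in CKO brain than in WT brain. The level in CKO limb was 45.0% of that in WT brain, and that in WT limb 7.29%.

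The second Pcsk2 probe (chr2:143641545-143641604) had a signal of 94.7 in CKO limb and 5.72, not well above background, in WT limb, so it was at least 3.15-fold higher in CKO limb. In brain it gave 637 in CKO and 614 in WT, a log2 difference of -0.10. The probes thus pointed the same way in each tissue, and the drop in brain was smaller at the dimmer probe. CKO limb lay 6.68-fold below WT brain at this probe.

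Pcsk1n differed little between genotypes at its bright probes. The brightest (chrX:7500267-7500326) was at -0.28 in CKO limb and -0.26 in WT limb, and at 4.19 in CKO brain and 4.13 in WT brain. The differences were -0.02 in limb and 0.06 in brain. At the intron-crossing probe they were -0.13 in limb and 0.09 in brain. All 4 values lay within 0.13 log2 of 0, with the limb values just below it and the brain values just above.

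The third Pcsk1n probe (chrX:7500858-7500917) went against these. It had a signal of 3.48, not well above background, in CKO limb and 26.0 in WT limb, and 41.6 in CKO brain and 32.5 in WT brain. That was at least 1.82-fold lower in CKO limb and 1.15-fold higher in CKO brain. Between tissues it hardly differed, by 0.11 log2 in WT brain against WT limb, where the other 2 probes differed by 4.39 and 5.87. At this level the technical SD of a difference was 0.30 in limb and 0.32 in brain. With the mean of all 3 probes in place of the brightest, the limb difference of Pcsk1n was -1.10. That mean takes the CKO limb value of the third probe as it stands, although it was not well above background. The -1.10 is therefore not a bound.

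Cpe was bright on every array. Its brighter probe was at 2.50 in CKO limb and 2.31 in WT limb, and at 4.52 in CKO brain and 4.59 in WT brain. Relative to WT it was 1.14-fold higher in CKO limb but 1.05-fold lower in CKO brain, and the intron-crossing probe gave 1.13-fold higher and 1.01-fold lower. In limb the differences were 0.19 and 0.18 log2, beside a technical SD of 0.07 that holds no variation between embryos. CKO limb stood at 23.4% and WT limb at 20.6% of the WT brain level.

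Ptprn had the highest bound of the members in limb and the largest difference in brain. Its probe gave a signal of 602 in CKO limb, against 5.71, not well above background, in WT limb. In brain it gave 507 in CKO and 176 in WT. Ptprn was therefore at least 20.0-fold higher in CKO limb and 2.59-fold higher in CKO brain. The highest level was that of CKO limb (-0.62), then CKO brain (-0.98), WT brain (-2.35) and WT limb. CKO limb thus exceeded WT brain by 3.32-fold and CKO brain by 1.28-fold.

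Ptprn2, the related phosphatase of the same membrane, was weak on every array. It had a signal of 22.0 in CKO limb and 6.02, not well above background, in WT limb, and 57.6 in CKO brain and 86.7 in WT brain. The CKO limb level of -5.40 lay below the weakest signal well above background on the WT limb array, -4.95, so no fold can be given for limb. In brain it was 1.68-fold lower in CKO, a difference of -0.74 with a technical SD of 0.32 at this level. The paralogues thus lay on opposite sides of 0 in brain, at 1.37 for Ptprn and -0.74 for Ptprn2.

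**Figure D1:**
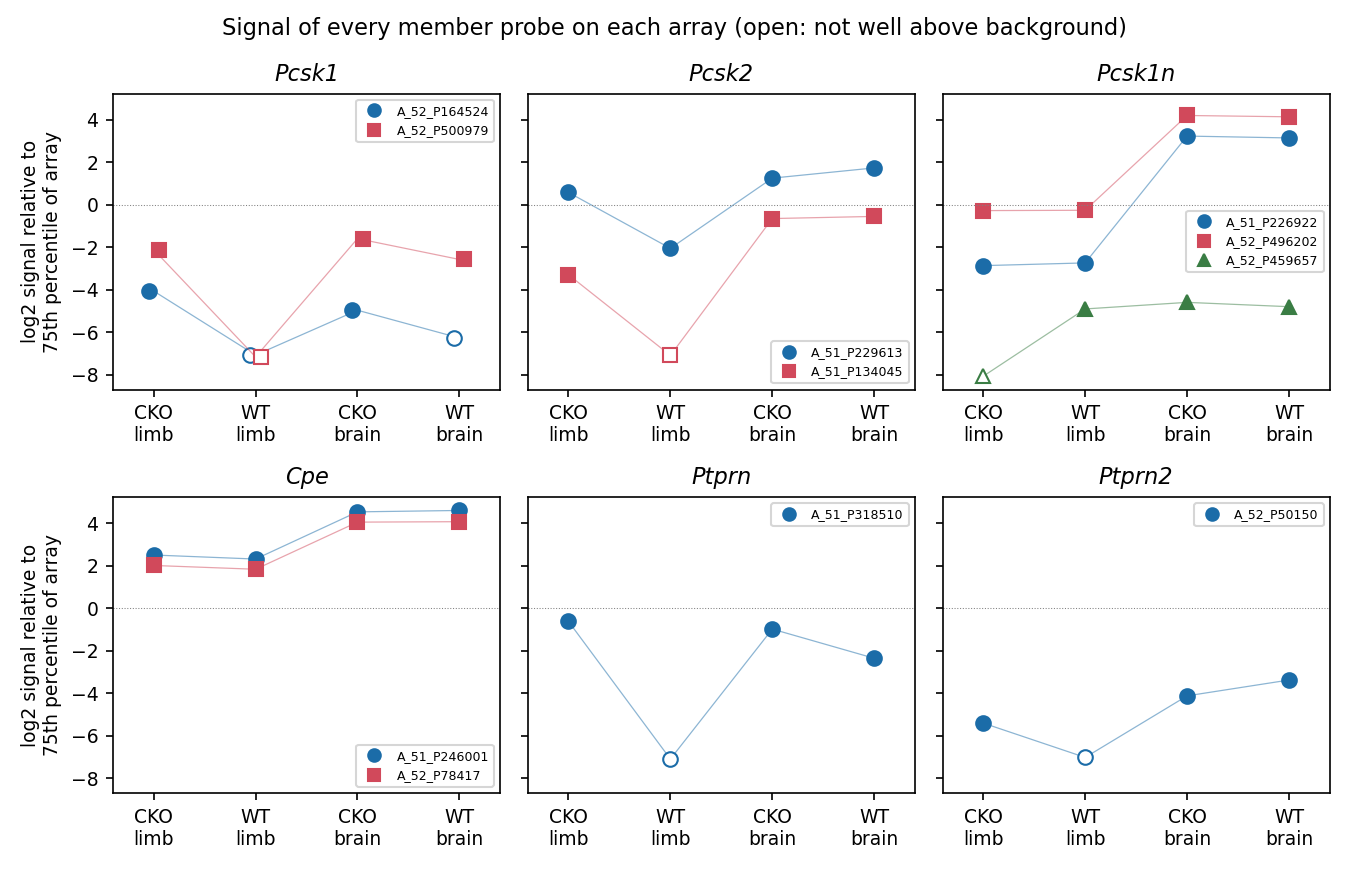
Log2 signal of each of the 11 probes (y axis, relative to the 75th percentile of the array) on the CKO limb, WT limb, CKO brain and WT brain arrays (x axis), 1 panel per gene and 1 colour and marker per probe. Filled markers are well above background and open ones are not; Pcsk1, Pcsk2 and Ptprn are low or open in WT limb and filled in CKO limb, while both Cpe probes are high on every array.

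In brain, 1 of 6 members, Ptprn, was higher by 2-fold or more in CKO and 0 lower, where among all 18943 genes compared 1.37% were higher and 1.22% lower by that much. All 6 members were well above background on both brain arrays at their brightest probe, and of genes with both arrays above background 0.878% were higher and 0.515% lower. The members' median difference was -0.0019, against -0.01 for all genes compared. Pcsk1, at 0.98, lay just under the 2-fold threshold, and Ptprn, at 1.37, lay above it. With the mean of both its probes, Pcsk1 was at 1.14 and passed it. That mean takes the WT brain value of the weaker probe as it stands, although it was not well above background. At the weaker probe alone the brain difference was at least 0.40. Ptprn and then Pcsk1 had the highest values of the 6 genes in brain; in limb their values are lower bounds, which do not order them. The comparisons within limb and within brain share no array. The difference between the tissues, limb minus brain, was at least 2.95 log2 for Ptprn, 3.11 for Pcsk2, at least 1.86 for Pcsk1, 0.26 for Cpe and -0.08 for Pcsk1n. With 1 array per group it was not tested.

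**Figure D2:**
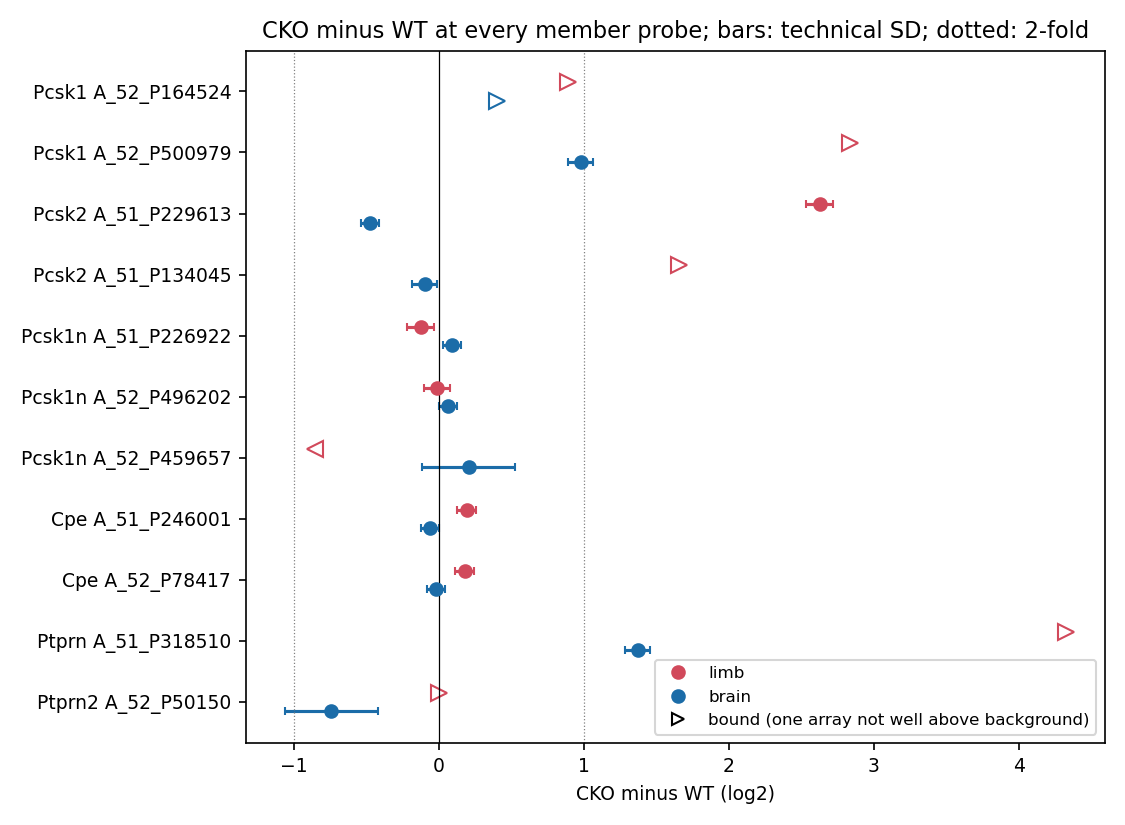
CKO minus WT difference in log2 units (x axis) at each of the 11 probes (y axis) in limb (red) and brain (blue). Circles are measured on both arrays with the technical SD for that signal range, triangles are bounds where 1 array was not well above background, and dotted lines mark 2-fold; the limb values of Pcsk1, Pcsk2 and Ptprn reach 2.83, 2.63 and 4.33, and those of Cpe stay at 0.19 or below.

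Ranked among all genes compared, bounds included, Ptprn was 43 of 18445 from the top in limb, Pcsk1 109 and Pcsk2 133. Cpe ranked 2688 and Pcsk1n 8897. In brain, Ptprn was 139 of 18943, Pcsk1 267 and Pcsk1n 5174, and Pcsk2 and Ptprn2 stood near the bottom at 18458 and 18650. At its brighter probe Pcsk2 thus stood near the top in limb and near the bottom in brain, where its second probe differed by -0.10.

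**Figure D3:**
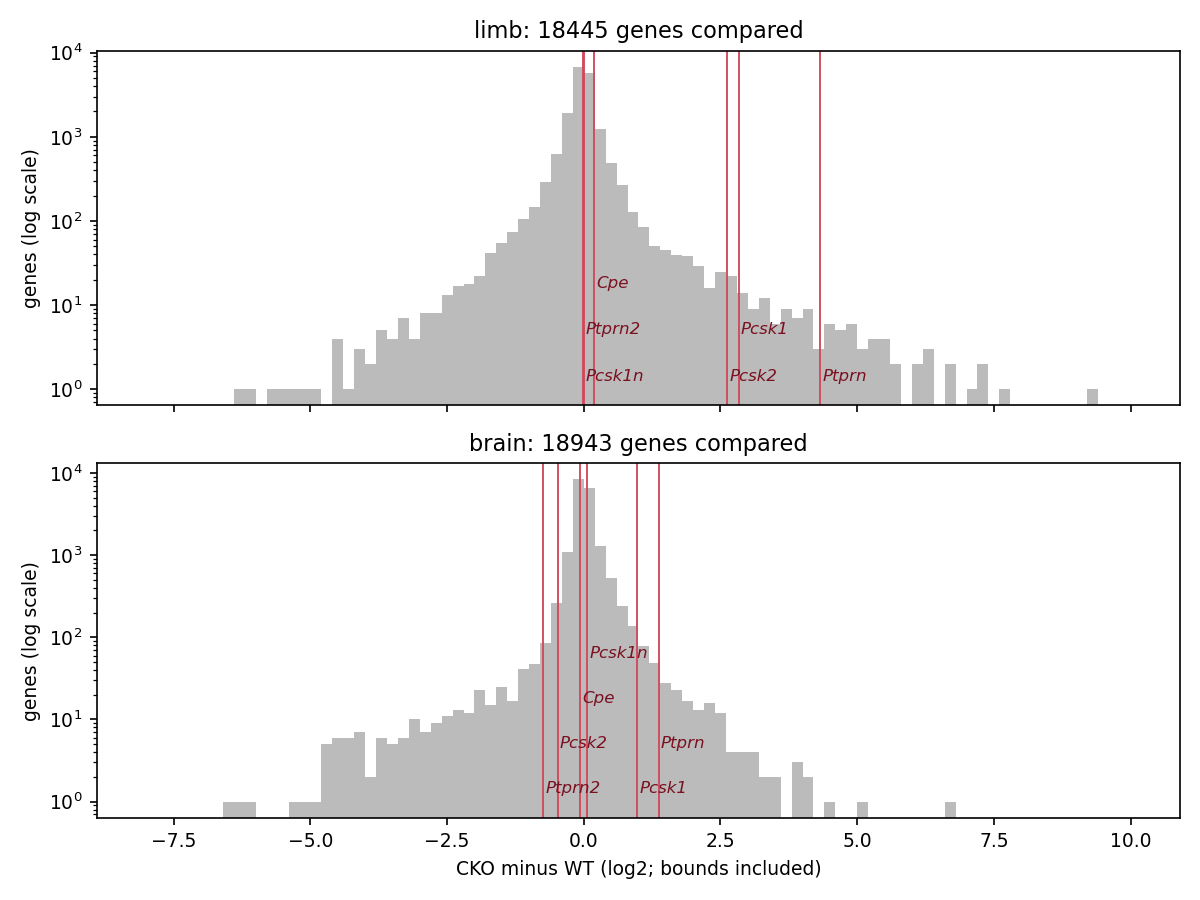
Number of genes (y axis, log scale) by CKO minus WT difference (x axis, log2, bins of 0.2, bounds included) in limb above and brain below, with the 6 members as red lines. In limb, Pcsk2, Pcsk1 and Ptprn stand in the upper tail at 2.63, 2.83 and 4.33, the last 2 as lower bounds. Cpe and Pcsk1n stand near 0, and the line of Ptprn2 at 0 in limb is a set value and no measured difference. In brain, Ptprn at 1.37 and Pcsk1 at 0.98 are the highest.

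Both tissues were then used together. A limma fit of genotype with tissue as a block took the 15628 genes that all 4 arrays measured above background without saturation, which includes Pcsk2, Pcsk1n and Cpe. It has 1 residual degree of freedom and assumes equal genotype effects in limb and brain, so any difference between them counts as error. No gene passed an adjusted p of 0.05 for genotype in either direction (0% higher, 0% lower; Benjamini-Hochberg), with 984 genes at an unadjusted p under 0.05. Genotype estimates by limma were 1.07 ± 0.98 (SE) for Pcsk2 with an adjusted p of 0.71, 0.06 ± 0.10 for Cpe with 0.81, and 0.02 ± 0.06 for Pcsk1n with 0.89. With genes well above background on at least 1 array, limma gave 3.92 ± 1.77 (SE) for Ptprn and 3.01 ± 1.41 for Pcsk1, each with an adjusted p of 0.76, and 0.43 ± 0.82 for Ptprn2 with 0.87. Those 3 estimates use the scanner's substitute values for WT limb and are not bounds.

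The same limma fit compared brain with limb over both genotypes. Pcsk1n was higher in brain by 4.43 ± 0.06 log2 (SE; adjusted p 0.0057) and Cpe by 2.16 ± 0.10 (adjusted p 0.0061). Of the 3 members tested, these 2 were called higher in brain, as were 32.2% of all genes tested, and 0 lower, as were 34.4%. For Pcsk2 the estimate missed the threshold, with an adjusted p of 0.15; brain exceeded limb by 3.78 log2 in WT and by 0.67 in CKO. With the 19982 genes well above background on at least 1 array, of which 25% were called higher in brain and 25.9% lower, limma's adjusted p for brain against limb was 0.13 for Ptprn2, 0.25 for Pcsk1 and 0.39 for Ptprn. Ptprn was 1.28-fold lower in CKO brain than in CKO limb, and in WT brain it exceeded WT limb by at least 6.04-fold.

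Markers of other cells were read beside these values. In limb, 6 of 13 neuron markers (Elavl3, Tubb3, Rbfox3, Rtn1, Nefm and Ina) exceeded WT by 2-fold or more in CKO and 0 fell short of it by that much, with a list median of 0.999, whereas Mapt differed by 0.06 and Gap43 by 0.11. Their summed signal, in units of the array's 75th percentile, was 25.0 in CKO limb and 18.6 in WT limb, against 586 in CKO brain and 598 in WT brain. Uchl1, at 3.75 on both limb arrays, was the brightest of the list in limb and weighs most in both limb sums. Such sums, here and for brain below, add probes whose levels are not comparable, so they do not measure how many cells of a type were present. Among 7 endocrine markers, Neurod1, Nkx2-2, Pax6 and Gh were not well above background on either limb array, and the list summed to 0.169 in CKO limb and 0.195 in WT limb. Peripheral sensory neuron markers summed to 0.873 in CKO limb and 0.870 in WT limb, and Schwann cell and neural crest markers to 4.71 in CKO limb and 4.24 in WT limb, with 0 genes of either list at least 2-fold different. All 6 skeletal muscle markers lay above 0 in limb, at a median of 0.52, and all 4 epidermis markers below it, at a median of -0.58, with 0 past 2-fold. More cells with these transcripts and more RNA per cell cannot be told apart in whole tissue, and the part of the neuron, muscle and epidermis markers in the limb values of Pcsk1, Pcsk2 and Ptprn was not tested.

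In brain, 0 of 13 neuron markers differed by 2-fold, with a median of -0.01. Limb mesenchyme and cartilage markers (Prrx1, Col2a1, Acan and Matn1) exceeded WT by 2-fold or more in CKO brain for 4 of 5 genes compared, summing to 12.8 in CKO brain and 6.73 in WT brain. Prrx1 was just past 2-fold at 1.02, and the count was 3 with normexp, median scaling or quantile normalization, where it was at 0.93, 0.99 and 0.999. Of 5 skeletal muscle markers compared, 1 was higher by 2-fold or more in CKO brain and 0 lower, with a list median of 0.68. That gene, Myl1, was 4.77-fold higher, at -2.44 in CKO brain and -4.70 in WT brain. With normexp it differed by 1.14 log2, and its second probe was not well above background in either brain. Actc1 differed by 0.04 and Acta1 by 0.68. Peripheral sensory neuron markers were at least 2-fold lower for 3 of 9, summing to 3.17 in CKO brain and 5.14 in WT brain. The part of these shifts in the brain values of Ptprn, Pcsk1, Pcsk2 and Ptprn2 was not tested.

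The other genes of the pathway were read from lists. Of 7 other proprotein convertases, which work mostly outside granules, 0 differed by 2-fold in either tissue. Furin, the convertase of the Golgi found in nearly all cells, was at 2.43 in CKO limb and 2.62 in WT limb. The median difference of the list was -0.09 in limb and -0.01 in brain. Of these 7, limma called 5 lower in brain than in limb, Furin and Pcsk6 among them, and 1, Pcsk7, higher, where 34.4% of all genes tested were lower and 32.2% higher.

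The carboxypeptidases and finishing enzymes related to Cpe had a median of -0.01 in limb over 9 genes compared. Pam, which amidates the ends of peptides, differed by -0.30 in limb and -0.24 in brain, and Cpd, a carboxypeptidase of the Golgi, by 0.10 and -0.01. In limb 1 of 9 passed 2-fold, Cpz, 2.25-fold higher in CKO at its brighter probe, and its difference was 0.70 log2 with normexp background correction. Cpxm2 differed by -0.70 in limb and by 1.24 in brain, 2.36-fold higher in CKO brain. In brain the probes of Cpz disagreed: the brighter was at least 3.29-fold higher in CKO, and the other, measured on both arrays, differed by -1.26. With normexp both Cpz and Cpxm2 were under 2-fold in brain.

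The granins, which are bulk proteins of the granule core, were higher in CKO limb together. All 5 granins and chaperones on the array were higher by 2-fold or more in CKO limb, with a median of 7.06, and 0 of 5 differed by 2-fold in brain, with a median of 0.49. Scg5 (7B2), the chaperone that Pcsk2 needs to become active, had a level of 0.04 in CKO limb and was not well above background in WT limb, so it was at least 31.7-fold higher. In brain it was at 2.94 in CKO and 2.95 in WT. The chaperone and its convertase were thus both higher in CKO limb, and the inhibitor Pcsk1n was not.

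Of the granule maturation and release genes, 22 could be compared in limb; 5 were higher and 1 lower by 2-fold or more in CKO, with a median of 0.14. The higher ones measured on both arrays were Rundc3a, Stx1a and Cadps (CAPS1), which primes granules for release, at differences of 6.34, 2.31 and 1.36. Snap25 (at least 6.05) and Rab3c (at least 1.90) were dim in WT limb. With normexp, Cadps differed by 0.97 and Rab3c by at least 0.84. Ica1 differed by 0.04 and Vamp2, the vesicle SNARE, by 0.03. The lower one was Doc2b, by at least 1.45 log2; with normexp it differed by -0.53, and 0 genes of the list were lower by 2-fold. In brain 0 of 22 differed by 2-fold.

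Of the peptide precursors, 19 could be compared in limb, and 2 were higher by 2-fold or more in CKO, with a median of 0.25: somatostatin (Sst), 3.66-fold, and Cartpt, at least 7.57-fold. Pomc differed by 0.68, Cck by 0.80 and Penk by -0.23 in limb. In brain 0 of 22 differed by 2-fold. Ins1 was not well above background on any array, and Gcg on neither limb array. Ins2 was well above background on every array and differed by 0.05 in limb and -0.07 in brain.

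The other receptor-type phosphatases gave a family comparison for Ptprn. Of 16 with a limb value, 2 were higher by 2-fold or more in CKO, Ptprr by at least 7.52-fold and Ptpro by 2.53-fold, and the median was -0.10. With the mean of all its probes, Ptpro differed by 0.21 log2. Its other probes were not well above background on either limb array, so that mean holds no second measurement of it. In brain 0 of 16 differed by 2-fold. The limb values of Ptprn and Ptprr are both lower bounds, at least 4.33 and at least 2.91, and have no order.

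**Figure D4:**
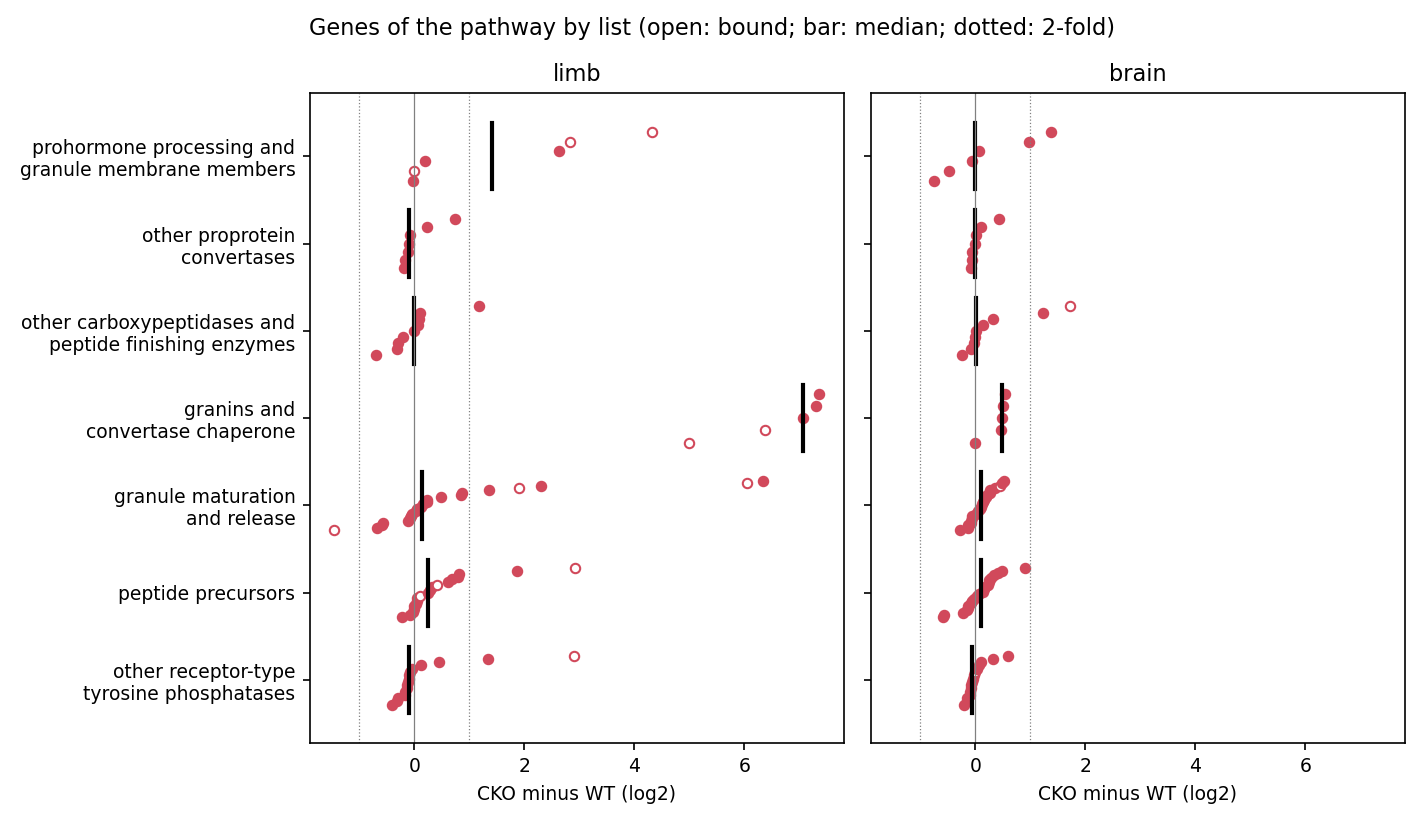
CKO minus WT difference in log2 units (x axis) for the members and the 6 lists of related genes (rows) in limb (left) and brain (right). Each circle is a gene, open where the value is a bound, black bars are medians and dotted lines mark 2-fold; the limb medians are 1.41 for the members, 7.06 for the granins and chaperones and -0.09 for the other convertases.

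Genes with the profile most like each member were found by the distance between log2 values over the 4 arrays, each gene centred on its own mean, among genes well above background on the same arrays. Closest to Pcsk1 were Ric3, Gjd2 and Unc13a, at root mean square distances of 0.24, 0.36 and 0.42 log2 among 769 genes. Closest to Ptprn were Unc13a (0.54), Pcsk1 (0.55) and Asphd1 (0.59), so both lists held Unc13a. The 769 candidates were those not well above background in WT limb alone, and the WT limb values in these distances are the scanner's substitutes, so the likeness comes partly from that choice. Closest to Pcsk2 were Carmil3 and Fbxl16 (0.23 each) and an unnamed transcript among 15627 genes. Pcsk1n was closest to Inpp5f (0.03), Pcp4 (0.05) and Slain1 (0.07), and Cpe to Ovgp1, Zfp607b and Lrrc49 (0.02 each). For Ptprn2 they were an unnamed transcript (0.15), Htr3a and Tmem229a (0.20 each). A profile of 4 arrays is short, and many genes share the simple pattern of a tissue difference.

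The promoter windows of the members were searched for an RE1-like motif, taken as CAGCACC, 2 free bases and GGACAG on either strand. Windows run from 250 bases before to 50 after each gene start and come from RefSeq on GRCm38.p6, whose positions cannot be set beside the mm9 positions of the probes. Pcsk1, Pcsk2, Pcsk1n and Ptprn2 have 1 window and Ptprn has 2. Cpe has no window there and was not searched. None of these 6 windows held a match with at most 3 mismatches in the 13 fixed bases, against 14.9% of all 32851 windows. The closest stretches are shown because they are what the search found in place of a match, read along the motif with matching fixed bases in capitals.
Pcsk1 (chr13:75089663-75089677, plus strand): CAGCAgaactGACcG
Pcsk2 (chr2:143545953-143545967, minus strand): CcGCgCCcccGcCAG
Pcsk1n (chrX:7919697-7919711, plus strand): ttGCcCCttGGACAt
Ptprn (chr1:75263797-75263811, minus strand): CgGgACCtgGaAaAG
Ptprn2 (chr12:116485725-116485739, minus strand): CAGCACCggacAgcG

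Each had 4 mismatches, and 62.0% of windows held a stretch with 4 or fewer. The other window of Ptprn had 5 at best, and Pcsk2 and Pcsk1n each held another stretch with as few as the one shown. No match says only that these letters are not in these windows. Of the 5 members with a window, only Ptprn2 held both parts without mismatch. They lay on the opposite strand, directly next to each other with no free bases between, from base 8 to base 20 after the gene start. The stretch is shown on the gene's own strand with both parts in capitals.
Ptprn2 (chr12:116485719-116485747, plus strand): cggtggcgCTGTCCGGTGCTGaagctcgg

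Of 32851 windows, 3 held the parts joined in this way, while CAGCACC alone was in 7.14% and GGACAG alone in 22.2%. The joined form was looked for after the sequence had been seen. Pcsk1, Pcsk2, Pcsk1n and Ptprn had neither part in their windows. Any link between these windows and the levels on the arrays was not tested.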

How the data were processed

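The authors deposited 1 Agilent scanner file per sample, all 4 arrays from 1 slide, with intensities from Agilent software whose version the submitters' processing notes give as Feature Extraction 9.5.3.1; per the file headers each intensity was background-subtracted and detrended within its array, with no normalization between arrays. The value table deposited for the series gave those intensities in rounded form, within 0.0071 log2. From these, control and outlier-flagged spots were left out, log2 signals were scaled to the array's 75th percentile, and spots of a probe were averaged. Probes were named by accession (27042 of 41174), current symbol (5499) or synonym (873), using RefSeq on GRCm38.p6, which also gave the promoter windows; the other 7760 kept the file's name.

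limma 3.58.1 in R 4.3.3 fitted genotype and tissue, with two-sided tests and Benjamini-Hochberg adjustment over all genes; it was tested on simulated data. Other steps used Python 3.11.15, numpy 2.4.6 and pandas 2.3.3. Alternatives were normexp (offset 50) on raw mean and background intensities, median, detected-probe and quantile scaling, the mean of all probes, the series table, other detection filters and an intensity trend.

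Named genes were the members, Rest, list genes 2-fold or more different on both arrays (up to 4 per list, but any gene of the convertase, carboxypeptidase and granule maturation lists) and the 3 genes most like each member; other markers, precursors, phosphatases and granins were named after their values were seen. Members and lists were chosen with earlier results of these data known.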

Additional observations from a re-analysis of the deposited data

Results flagged for a closer look

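Pcsk2 went opposite ways in the 2 tissues: CKO minus WT was 2.63 log2 in limb and -0.48 in brain at its brighter probe. At its second probe it was at least 1.66 in limb and only -0.10 in brain, beside a technical SD of 0.09 in brain at that level. Pcsk1n had -0.015 in limb and 0.062 in brain, beside technical SDs of 0.09 and 0.06 at those levels. Cpe had 0.19 in limb and -0.066 in brain, beside technical SDs of 0.07 and 0.06. For all 3 genes the difference between the tissues was not tested.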

How the results depend on the processing

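Pcsk1, Pcsk2 and Ptprn stayed at least 2-fold higher in CKO limb under each alternative that gave them a value, ranging from 1.66 to 2.89, 2.27 to 3.21 and 2.92 to 4.38 log2; requiring both arrays well above background left 1 member, Pcsk2. With the mean of all probes, 1 member (Pcsk1n, -1.10) was at least 2-fold lower in CKO limb. In CKO brain 2 were higher (Ptprn, and Pcsk1 at 1.14). Such means keep the scanner's substitute values of probes not well above background, so they are not bounds. Substitutes enter the -1.10 through the third Pcsk1n probe in CKO limb and the 1.14 through the weaker Pcsk1 probe in WT brain. They also enter the 3.21 of Pcsk2 through its second probe in WT limb. Pcsk2 in brain ranged from -0.51 to -0.29 and Ptprn2 from -0.77 to -0.47. With normexp, genes called in limb numbered 286 higher and 144 lower (460 and 398 as reported), and in brain 87 higher and 113 lower (259 and 232). With both arrays above background they were 261 and 216 in limb and 150 and 88 in brain. Genotype calls over both tissues were 0 under all 8 alternatives. The brain-over-limb adjusted p by limma ranged from 0.0012 to 0.021 for Pcsk1n and from 0.0017 to 0.021 for Cpe. The SD with spots paired by position, added after the data were seen, was 0.05 in each tissue, against 0.10. No paired analysis was possible because each group has 1 array and so no replicate numbers to pair, beyond the tissue term already in the limma fit; for the same reason no array was left out. Dim probes limit the rest: the limb fold changes of Pcsk1 and Ptprn are bounds.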

Other observations

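The levels behind some of the brain counts above were as follows. Cpxm2, a carboxypeptidase relative, at -2.22 in CKO brain and -3.46 in WT brain, was higher in CKO beside the cartilage genes Acan, at -0.81 in CKO brain and -4.86 in WT brain, and Col2a1, at 2.76 in CKO brain and 1.06 in WT brain. The sensory neuron gene Avil was at -4.56 in CKO brain and -2.51 in WT brain. Igf2, the growth factor that convertases also process, was at 5.22 in CKO brain and 4.31 in WT brain and at 7.87 in both limbs.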
